A study of Mus musculus with 12 samples.

Results

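Insig1, Hmgcs1, Fdps, Fdft1, Sqle, Lss, Cyp51 and Nsdhl encode a regulator and 7 enzymes of cholesterol synthesis. They were followed in male germ cells of the mouse at 4 stages. These are type A and type B spermatogonia, which divide by mitosis, then pachytene spermatocytes, which are in meiosis, and round spermatids, which have completed it. The genes were chosen by name, as the probe sets whose gene symbol in the platform annotation is one of these 8, and they make up 8 of the 15964 genes that the probe sets of the 3 Affymetrix designs U74Av2, U74Bv2 and U74Cv2 name. They are represented by 23 probe sets. Total RNA of each cell type was hybridised to 1 array per design, 12 arrays in all, and each is described as a single sample. Strain, genotype, age and method of isolation are not given in the sources used here, and no treatment is named. There are no replicates, so the differences below carry no error between preparations and no test, and precision is limited by the small number of arrays.

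Cells make cholesterol from acetyl-CoA. Hmgcs1 makes HMG-CoA, which feeds the mevalonate pathway, whose isoprenoid units are joined by Fdps into farnesyl diphosphate, the branch point between sterols and other isoprenoids. Fdft1 and Sqle make squalene and its epoxide, Lss closes the rings to lanosterol, and Cyp51, Nsdhl and further enzymes turn lanosterol into cholesterol. Transcription of these genes is driven by SREBP factors (Srebf1, Srebf2), which the escort protein Scap carries from the endoplasmic reticulum when sterols are low and which Insig1 and Insig2 hold back when sterols are high. The Cyp51 product is known as a meiosis-activating sterol, and in the testis Leydig cells use cholesterol for androgen synthesis.

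The genes differed in course. Hmgcs1, Insig1 and the leading probe set of Nsdhl were high in both types of spermatogonia and low in pachytene spermatocytes and round spermatids; Cyp51 had low signals of the same course. Fdft1 and Sqle, the neighbouring steps that make squalene and its epoxide, were highest in round spermatids, Fdft1 already being higher in pachytene spermatocytes. Fdps was lowest in pachytene spermatocytes, and the course of Lss depended on the probe set. Of the 23 probe sets 15 exceeded a signal floor in at least 1 cell type and 8 in none. The floor, below which values were set to it, lay between 50.01 and 50.03 signal units. All 49 readings of these genes over the floor also exceeded the highest negative control (bacterial and yeast sequences) of their array.

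**Figure D1:**
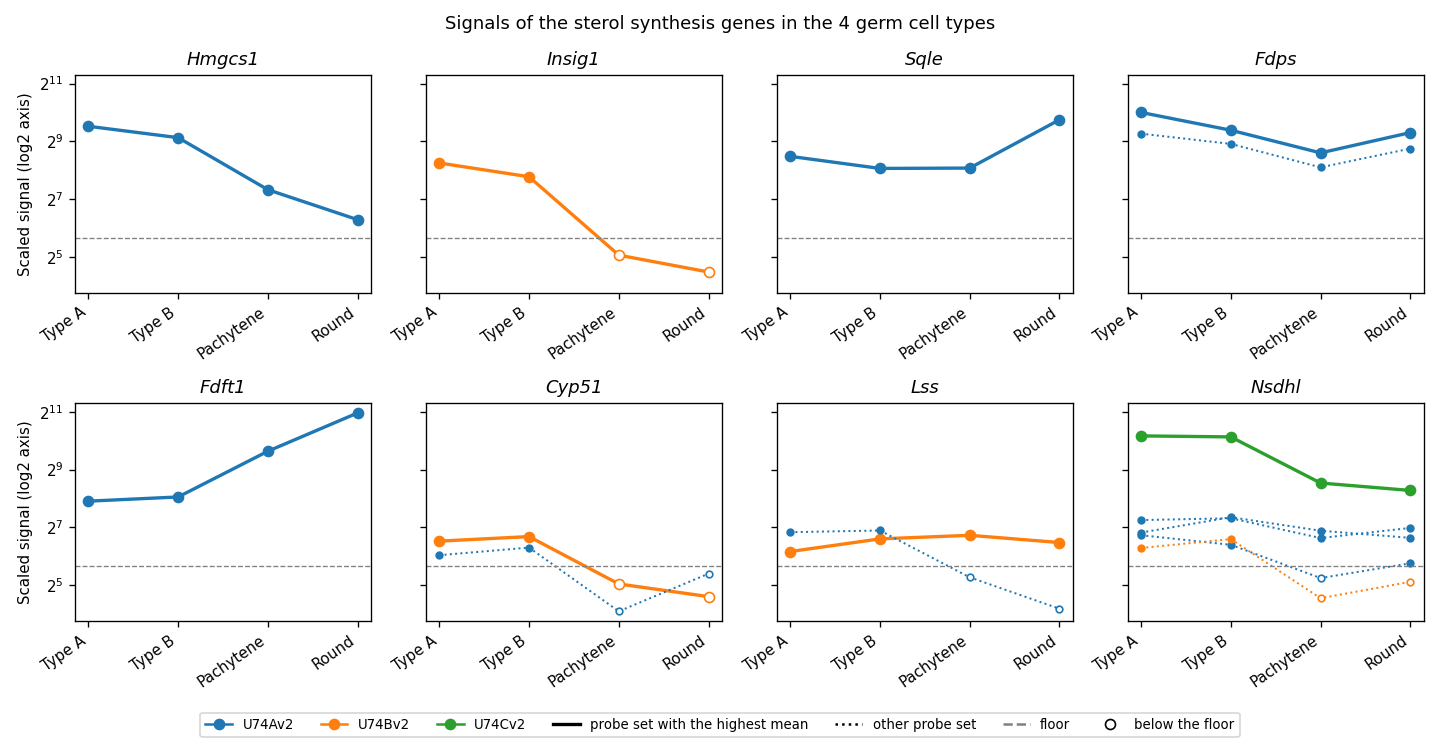
Scaled signal (vertical, log2 axis) of every probe set of the 8 genes that exceeded the floor (dashed) in at least 1 of the 4 cell types (horizontal); colour gives the design, a solid line the probe set with the highest mean, dotted lines the others and open points values below the floor. Hmgcs1 went from 735 in type A spermatogonia to 78.0 in round spermatids, while Fdft1 went from 239.5 to 1994.

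Promoters of the 4 genes that read at least 2-fold lower in pachytene than in type B cells are shown because SREBP factors act on such genes through short elements near the start of transcription. The RefSeq promoter table (GRCm38.p6) held 5 of the 8 genes, Insig1, Hmgcs1, Cyp51, Nsdhl and Lss. Each sequence is the 250 bases before the start, 5′ to 3′ along the gene, with capitals for matches to TCACNCCAC (a sterol element), CCAAT (the box of the factor NF-Y) and TGACG (the core of the cAMP response element) on either strand, so that ATTGG and CGTCA are the last 2 read on the other strand.
Hmgcs1, chr13:119690101-119690350, plus strand: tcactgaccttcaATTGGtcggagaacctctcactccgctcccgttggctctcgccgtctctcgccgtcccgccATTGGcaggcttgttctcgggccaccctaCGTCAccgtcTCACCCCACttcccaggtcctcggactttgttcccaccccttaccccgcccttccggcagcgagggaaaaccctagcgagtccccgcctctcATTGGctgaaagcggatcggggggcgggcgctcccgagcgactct
Insig1, chr5:28071162-28071411, plus strand: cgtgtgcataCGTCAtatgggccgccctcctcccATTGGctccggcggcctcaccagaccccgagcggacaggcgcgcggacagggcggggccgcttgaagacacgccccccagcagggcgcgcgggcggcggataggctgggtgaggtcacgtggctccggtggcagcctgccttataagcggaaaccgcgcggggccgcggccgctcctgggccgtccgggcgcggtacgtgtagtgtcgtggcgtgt
Cyp51, chr5:4104698-4104947, minus strand: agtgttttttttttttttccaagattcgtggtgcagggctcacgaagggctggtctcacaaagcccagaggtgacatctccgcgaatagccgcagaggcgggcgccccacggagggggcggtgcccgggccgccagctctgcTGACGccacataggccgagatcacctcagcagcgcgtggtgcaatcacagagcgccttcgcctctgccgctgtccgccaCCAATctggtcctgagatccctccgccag
Nsdhl, chrX:72918271-72918520, plus strand: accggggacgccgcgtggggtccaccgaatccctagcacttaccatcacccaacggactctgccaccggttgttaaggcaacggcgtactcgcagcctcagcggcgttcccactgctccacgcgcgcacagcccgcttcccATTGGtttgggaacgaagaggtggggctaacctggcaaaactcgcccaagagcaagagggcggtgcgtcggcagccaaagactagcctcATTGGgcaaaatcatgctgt

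Of the 5 promoters, only that of Hmgcs1 held TCACNCCAC, as TCACCCCAC with its first base 137 bases before the start. The motif was in 1.05% of all 32851 promoter windows of the table, each taken over the same 250 bases. All 5 held CCAAT, against 33.8% of all windows, with 3 matches in Hmgcs1, 2 in Nsdhl and 1 each in Insig1, Cyp51 and Lss. In Cyp51 the box began 29 bases before the start. TGACG was in Hmgcs1, Insig1 and Cyp51, against 17.8% of all windows. None of the 5 held TGACGTCA, the full cAMP element that contains TGACG and was in 1.55% of windows. All 5 held GGGCGG, the GC box, which was in 32.7% of windows. A match is a description of the letters and was not tested as a binding site.

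Insig1, on chromosome 5, encodes the membrane protein that holds Scap in the endoplasmic reticulum. Its probe set on U74Bv2 read 304 in type A and 219 in type B spermatogonia, then 33.3 in pachytene spermatocytes and 22.2 in round spermatids. The last 2 are below the floor and have no order. Insig1 was thus at least 4.37-fold lower in pachytene than in type B cells, and at least 6.08-fold lower in round spermatids than in type A spermatogonia. The second Insig1 probe set, on U74Av2, stayed below the floor in every cell type, with a highest signal of 10.8, and gave no ratio.

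Hmgcs1, on chromosome 13, encodes cytosolic HMG-CoA synthase, an early step of the pathway. Its only probe set read 735 in type A and 559 in type B spermatogonia, then 160.2 in pachytene spermatocytes and 78.0 in round spermatids. Both spermatogonial types were far above both later cell types. The step from type B spermatogonia to pachytene spermatocytes was 3.49-fold lower and that from pachytene spermatocytes to round spermatids 2.05-fold lower, which made round spermatids 9.42-fold lower than type A spermatogonia. The second of these steps came under 2-fold in 3 of 10 alternative settings, with a log2 ratio of -1.04 that went up to -0.68.

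The spread of repeats was read from control probe sets present on all 3 designs. Taken as a fold, 2 SD of their ratio was 1.44-fold for type B over type A spermatogonia, 1.38-fold for pachytene spermatocytes over type B spermatogonia, 1.83-fold for round spermatids over pachytene spermatocytes and 2.20-fold for round spermatids over type A spermatogonia. This covers differences between arrays of the same cell types and no difference between cell preparations. By this measure the differences between type A and type B spermatogonia for Hmgcs1 (1.31-fold) and Insig1 (1.39-fold) lay within the repeats, and both later steps of Hmgcs1 lay beyond them.

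Nsdhl, on the X chromosome, encodes the sterol dehydrogenase that acts after Cyp51 in removing methyl groups. The probe set with the highest mean, on U74Cv2, read 1148 in type A and 1121 in type B spermatogonia, then 370.3 in pachytene spermatocytes and 309.8 in round spermatids. It was 3.03-fold lower in pachytene than in type B cells and 3.71-fold lower in round spermatids than in type A spermatogonia. Its name ends in _f_at, which marks probes shared with other similar sequences. There were 4 further Nsdhl probe sets. In the same order of cell types, used for all lists of 4 signals that follow, 3 probe sets on U74Av2 read 152, 159, 98.8 and 126, then 113, 163, 118 and 99.3, then 106, 84.0, 37.8 and 53.9. The probe set on U74Bv2 read 77.8, 96.3, 23.3 and 34.5. Signals under the floor are printed as measured but have no order among themselves. All 5 probe sets were lower in pachytene than in type B cells, by 1.61-fold, 1.38-fold, at least 1.68-fold and at least 1.93-fold for the latter 4. Only the U74Cv2 probe set thus gave a difference of at least 2-fold, and the 2 bounds do not say how large the difference was. Between round spermatids and type A spermatogonia the latter 4 were 1.21-fold, 1.13-fold, 1.96-fold and at least 1.56-fold lower. The first 3 of these lay within the 2.20-fold spread of repeats. The probe set that read 113 in type A spermatogonia was 1.05-fold higher in pachytene spermatocytes.

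Cyp51, on chromosome 5, encodes the demethylase that acts on lanosterol, and its signals were low. The leading probe set, on U74Bv2, read 91.7 in type A and 102 in type B spermatogonia, then 32.8 in pachytene spermatocytes and 24.2 in round spermatids. The U74Av2 probe set read 65.4, 78.6, 17.0 and 42.0 in the same order, and the U74Cv2 probe set stayed below the floor, with a highest signal of 37.7. Both measured probe sets exceeded the floor in spermatogonia only. Cyp51 was at least 2.05-fold lower in pachytene than in type B cells by the first and at least 1.57-fold lower by the second. In 7 of 11 alternative settings Cyp51 came under 2-fold at this step, and in none did its direction turn.

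Fdft1, on chromosome 14, encodes squalene synthase, which commits farnesyl diphosphate to sterols. Its only probe set read 239.5 in type A and 265 in type B spermatogonia, then 795 in pachytene spermatocytes and 1994 in round spermatids. Pachytene spermatocytes were 3.001-fold higher than type B spermatogonia, and round spermatids were 2.51-fold higher than pachytene spermatocytes and 8.32-fold higher than type A spermatogonia. The difference of type B over type A spermatogonia, 1.11-fold, was within the spread of repeats, and the later steps were beyond it. Each of these 3 differences was over 2-fold in all alternative settings.

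Sqle, on chromosome 15, encodes squalene epoxidase, the next step. Its only probe set read 357 in type A and 267 in type B spermatogonia, then 269 in pachytene spermatocytes and 859 in round spermatids. The first 3 cell types lay close together and round spermatids stood above them. Round spermatids were 3.19-fold higher than pachytene spermatocytes, a difference over 2-fold in all 10 alternative settings, and 2.41-fold higher than type A spermatogonia, which came to a log2 ratio of 0.95 when arrays were scaled to spike-in controls. Pachytene spermatocytes and type B spermatogonia differed by 1.01-fold. Fdft1, in contrast, already read higher in pachytene spermatocytes than in spermatogonia.

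Fdps, on chromosome 3, encodes farnesyl diphosphate synthase. Its leading probe set on U74Av2 read 1025 in type A and 669 in type B spermatogonia, then 388 in pachytene spermatocytes and 632 in round spermatids. A second one on the same design read 616, 481, 274 and 429.8 in that order, so both were lowest in pachytene spermatocytes. Pachytene spermatocytes were 1.72-fold and 1.76-fold lower than type B spermatogonia by these probe sets, and 2.64-fold and 2.25-fold lower than type A spermatogonia. Round spermatids were 1.63-fold and 1.57-fold higher than pachytene spermatocytes, which is within the spread of repeats at that step. The leading probe set was 1.53-fold lower in type B than in type A spermatogonia, beyond the 1.44-fold of the repeats, and the second 1.28-fold lower, within it. The other 4 Fdps probe sets stayed below the floor in every cell type.

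Lss, on chromosome 10, encodes lanosterol synthase, and its probe sets disagreed. The one with the highest mean, on U74Bv2, read 71.4 in type A and 96.8 in type B spermatogonia, then 105 in pachytene spermatocytes and 88.7 in round spermatids, with no neighbours in that order further apart than the repeats. By this probe set pachytene spermatocytes were 1.48-fold higher than type A spermatogonia, beyond the 1.42-fold spread of repeats for that pair. The U74Av2 probe set read 114, 118, 38.5 and 18.1, and was at least 2.37-fold lower in pachytene than in type B cells. The other 2 Lss probe sets stayed below the floor. No course of Lss is therefore given.

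Across the 8 genes, none differed by at least 2-fold between type B and type A spermatogonia, where 3.92% of all tested genes were at least 2-fold higher and 3.94% lower. A gene counted as tested where at least 1 of the 2 cell types exceeded the floor. The median log2 ratio of the 8 genes was -0.21, against 0.01 for the 11951 tested genes, and Hmgcs1, Insig1, Sqle and Fdps lay between -0.39 and -0.62. Scaling to spike-in controls moved the median of all tested genes to -0.67 and that of the 8 genes to -0.92, and put Hmgcs1, Insig1, Sqle and Fdps past 2-fold.

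Between pachytene spermatocytes and type B spermatogonia, 4 of the 8 genes were at least 2-fold lower (Insig1, Hmgcs1, Cyp51 and, by its leading probe set, Nsdhl) and 1 (Fdft1) higher. The same was true of 23.2% (lower) and 17.1% (higher) of all 12281 tested genes. The median log2 ratio of the 8 genes was -0.91, against -0.28 over all tested genes. With arrays scaled to a common median these medians were -0.50 and 0.15, and with spike-in scaling -0.34 and 0.24. Set against type A in place of type B spermatogonia, again 4 were lower and 1 higher, with Fdps in place of Cyp51, against 23.7% lower and 17.1% higher of all 12048 tested genes. The count of lower genes was 2 under spike-in scaling, with the mean over probe sets and on U74Av2 only. At 4-fold, Insig1 alone remained lower and none higher, against 5.44% and 7.9% of all tested genes.

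Between round spermatids and pachytene spermatocytes, 2 of the 6 tested genes (Sqle and Fdft1) were at least 2-fold higher and 1 (Hmgcs1) lower, against 10.5% higher and 13.7% lower of all 11203 tested genes. Insig1 and Cyp51 were below the floor in both cell types. Between round spermatids and type A spermatogonia, 2 genes (Fdft1 and Sqle) were at least 2-fold higher and 3 lower, against 18% higher and 28.3% lower of all 12295 tested genes. The 3 lower genes were Hmgcs1, Insig1 and, by its leading probe set, Nsdhl. At 4-fold, no gene was left between round spermatids and pachytene spermatocytes, against 4.45% higher and 2.28% lower of all tested genes. Between round spermatids and type A spermatogonia Fdft1 was over 4-fold higher and Hmgcs1 and Insig1 over 4-fold lower, against 9.63% and 9.19%. Counts over so few genes are given beside these shares as a description.

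**Figure D2:**
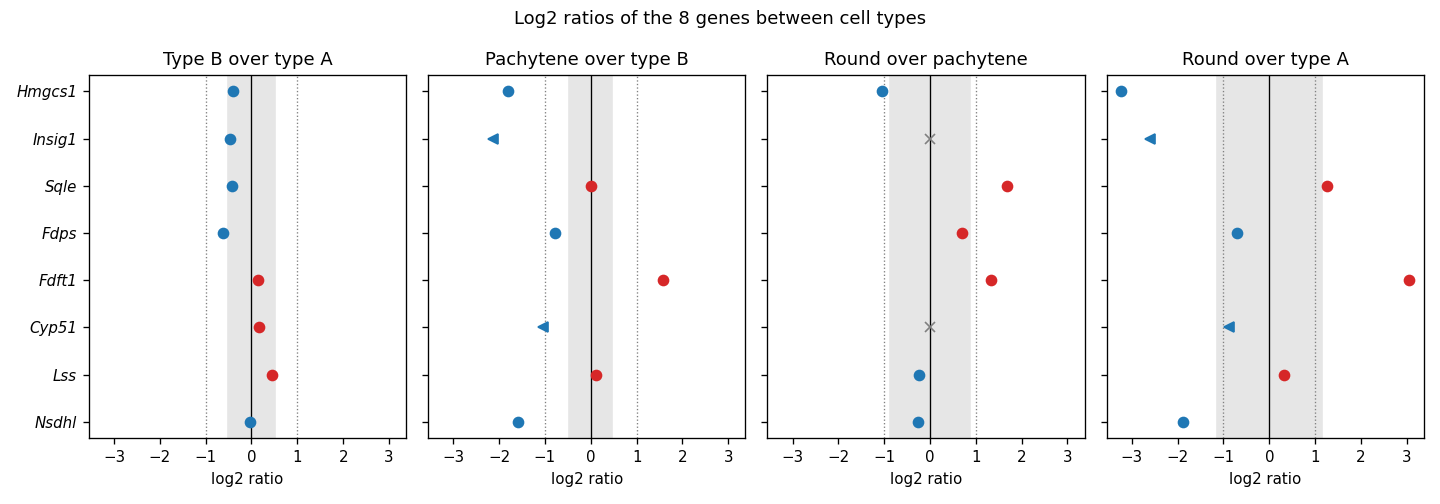
Log2 ratio (horizontal) of the leading probe set of each of the 8 genes (vertical) for the 4 comparisons; red is higher and blue lower, triangles are bounds against the floor, crosses mark genes below the floor in both cell types, the grey band is 2 SD of repeated control probe sets and dotted lines mark 2-fold. Fdft1 at 3.06 and Hmgcs1 at -3.24 were the ends of the range for round spermatids over type A spermatogonia.

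Summed markers of peritubular, Sertoli and macrophage cells were lower in both later cell types, and single markers differed from their sums. Hmgcs1, Insig1 and the leading probe set of Nsdhl were lower in both as well. Summed signals of 9 peritubular and fibroblast markers were 7173 in type A and 14753 in type B spermatogonia, then 519 in pachytene spermatocytes and 654 in round spermatids, with 9, 9, 4 and 3 markers over the floor and Col1a1, Col1a2, Col3a1, Bgn and Lum below it in both later cell types. The 10 Sertoli cell markers summed to 5683, 4208, 2914 and 1182 in the same order, with Amh below the floor throughout. Of these sums Clu alone gave 3237, 2190, 1717 and 214. Fshr read 144, 160, 172 and 183 and Rhox5 77.3, 64.9, 112.5 and 28.8. The 8 measured Leydig cell markers summed to 1226, 1857, 1169 and 696, so that pachytene spermatocytes were close to type A spermatogonia, and there Cyp11a1 (58.3, 66.8, 134 and 11.8) and Cyp17a1 (150.02, 254, 366 and 16.1) read highest. The 7 macrophage markers summed to 340.0, 609, 157 and 227, with 3, 5, 1 and 2 over the floor. In pachytene spermatocytes 4 of 5 tested were at least 2-fold lower than in type B spermatogonia. Against type A spermatogonia none was at least 2-fold lower in either later cell type. The part of such cells in the signals of the 8 genes was not tested, and in these bulk samples fewer cells of a type and less RNA per cell cannot be told apart. Germ cell markers were checked too. The 8 spermatogonial markers summed to 4385, 3326, 576 and 1259, the 6 measured pachytene markers to 939, 822, 21977 and 25915, and the 8 round spermatid markers to 282, 318, 2422 and 29983. Ldhc, the lactate dehydrogenase of meiotic cells, was below the floor in both spermatogonial types and read 8691 in pachytene spermatocytes. Prm1, a protamine, read 14320 in round spermatids. Other markers differed from their lists. Spaca1, a round spermatid marker, was over the floor in spermatogonia only, and Crem read 90.6 in pachytene spermatocytes and 58.9 in round spermatids. The pachytene sum was highest in round spermatids, where Sycp1 was at least 2-fold higher than in pachytene spermatocytes. Sall4, a spermatogonial marker, was at least 2-fold higher in round spermatids than in type A spermatogonia.

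Among the other enzymes of the pathway, 11 were analysed here. Between pachytene spermatocytes and type B spermatogonia, 10 enzymes were tested, with a median log2 ratio of -0.30 against -0.28 over all tested genes. Of these 10 enzymes, 1 was at least 2-fold lower and none higher, against 23.2% and 17.1% of all tested genes. The lower one was Msmo1, the oxidase that works with Nsdhl, which read 167, 106, 36.0 and 5.5 in the order of the cell types and was at least 2.13-fold lower. Among the early enzymes, Mvk, mevalonate kinase, read 126, 168, 151.5 and 153, and Idi1, the isomerase before Fdps, read 351, 369, 409 and 302. Their second probe sets differed from these: that of Mvk read 68.0, 120.4, 33.4 and 104, at least 2.41-fold lower in pachytene than in type B cells, and that of Idi1 read 55.3, 84.2, 147 and 141, which is 2.66-fold higher in pachytene spermatocytes and 2.55-fold higher in round spermatids than in type A cells. Counts of genes here and in the lists that follow are by leading probe sets. Pmvk, the next kinase, read 222, 181, 105 and 85.7 and was 2.60-fold lower in round spermatids than in type A spermatogonia; a second Pmvk probe set read 196, 43.8, 57.0 and 113, with another order of the cell types. Between round spermatids and pachytene spermatocytes 1 of 8 tested enzymes (Lbr) was at least 2-fold lower, against 13.7% of all tested genes. Between round spermatids and type A spermatogonia 3 of 10 (Lbr, Msmo1 and Pmvk) were lower, against 28.3%. None was higher at either, against 10.5% and 18%. By leading probe sets no enzyme of this list differed by 2-fold between the spermatogonial types. Of all tested genes 3.92% were higher and 3.94% lower there. The second Pmvk probe set was, however, at least 3.91-fold lower in type B.

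Several of these enzymes had probe sets that disagreed, as Lss did. Mvd, the decarboxylase that makes isopentenyl diphosphate, read 2474, 1327, 2108 and 2288 on U74Cv2 by a probe set with the ending _r_at. The U74Av2 probe set of Mvd read 143 and 111 in the spermatogonial types and was below the floor later, at least 2.21-fold lower in pachytene than in type B cells. Dhcr7, the last reductase, read 509, 553, 294 and 439.9 on U74Cv2 and 149, 80.4, 26.8 and 12.2 on U74Av2. Tm7sf2, a sterol reductase that acts on the Cyp51 product, read 90.1, 151, 139 and 167 on U74Av2 and 163, 237, 21.7 and 36.9 on U74Cv2. From type B spermatogonia to pachytene spermatocytes both probe sets were lower for Dhcr7, and the 2 of Mvd ran in opposite directions. For Tm7sf2 the U74Cv2 probe set was at least 4.73-fold lower. Its U74Av2 probe set differed by 1.08-fold, within the 1.38-fold spread of repeats.

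Lbr, the second reductase of the Cyp51 product and a protein of the nuclear envelope, was lower in round spermatids by both of its probe sets. It read 329, 271, 333 and 98.1 on U74Av2 and 212, 154, 287 and 115 on U74Bv2, so that round spermatids were 3.40-fold and 2.49-fold lower than pachytene spermatocytes. Hsd17b7, which acts with Nsdhl and Msmo1, read 395, 501, 284 and 291, 1.36-fold lower in round spermatids than in type A spermatogonia. A second Hsd17b7 probe set, on U74Bv2, read 114, 82.5, 39.1 and 35.8, at least 2.27-fold lower there. Ebp, an X-linked isomerase, read 53.5, 68.4, 34.4 and 4.50, just over the floor in spermatogonia and below it later. Sc5d stayed below the floor in every cell type.

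**Figure D3:**
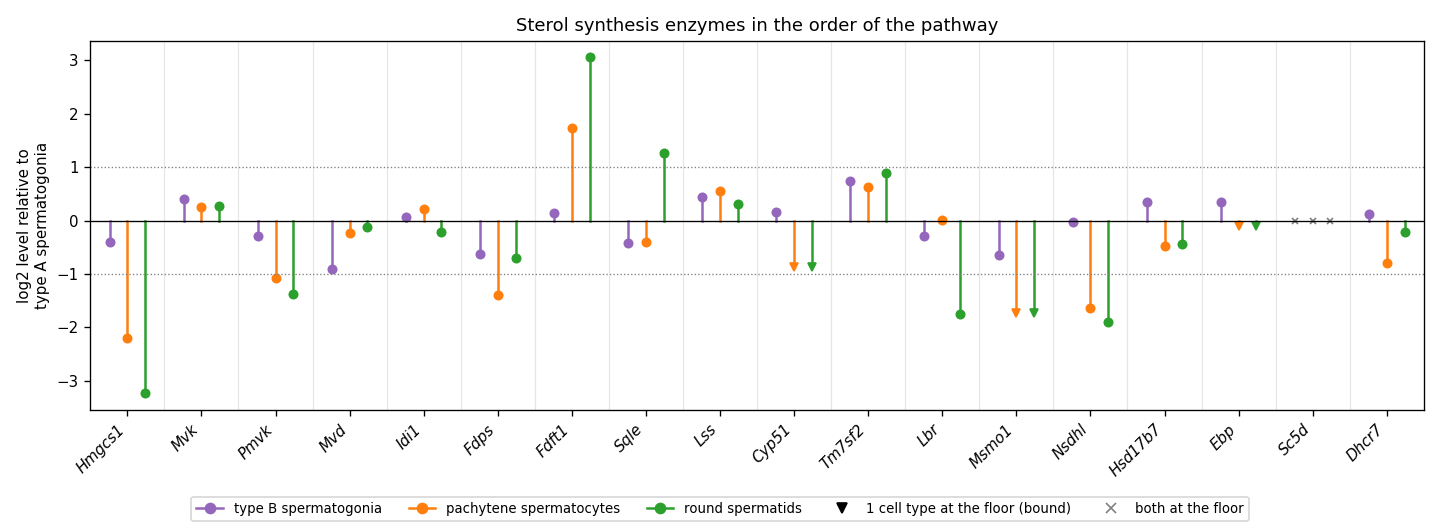
Log2 level relative to type A spermatogonia (vertical) of the leading probe set of each measured enzyme, ordered along the pathway (horizontal), in type B spermatogonia and in the 2 later cell types; triangles are bounds, crosses mark values at the floor in both cell types and dotted lines mark 2-fold. By these probe sets Fdft1 and Sqle are the only enzymes over the upper 2-fold line, and both are in round spermatids at 3.06 and 1.27, Fdft1 also in pachytene spermatocytes at 1.73.

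Among the control genes, Insig2 ran opposite to Insig1. Insig2, the second Insig protein, read 258, 226, 876 and 1033 by one U74Bv2 probe set and 256, 226, 641 and 337 by another. Pachytene spermatocytes were 3.88-fold and 2.84-fold higher than type B spermatogonia by these, whereas Insig1 was at least 4.37-fold lower. Scap, the escort protein of SREBP, read 955, 1025, 139.6 and 234 and was 7.35-fold lower in pachytene spermatocytes. Srebf1 read 527, 435, 119.5 and 147 and was 3.64-fold lower, and Srebf2 stayed below the floor, with a highest signal of 6.3. Of the 9 tested control genes at this step, 4 were at least 2-fold higher (Insig2, Erlin1, Erlin2 and Nr1h3) and 2 lower (Scap and Srebf1). The shares of all tested genes were 17.1% and 23.2%. The median log2 ratio was -0.49, the value of Mbtps2, which is a bound against the floor. Mbtps1 was 1.57-fold lower by its leading probe set and 3.08-fold lower by another.

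Erlin1 and Erlin2 encode partner proteins in the membrane of the endoplasmic reticulum. Erlin1 read 386, 326, 1129 and 255 and Erlin2 604, 584, 1558 and 276, so both were highest in pachytene spermatocytes. Round spermatids were 4.43-fold lower for Erlin1 and 5.64-fold lower for Erlin2 than pachytene spermatocytes. Between these cell types no control gene was at least 2-fold higher and only these 2 of 7 tested were lower. Of all tested genes 10.5% were higher and 13.7% lower there. Between round spermatids and type A spermatogonia 2 of 9 were higher (Insig2 and Nr1h3) and 4 lower (Scap, Srebf1, Erlin2 and Mylip). The shares of all tested genes were 18% and 28.3%. Insig2 passed 2-fold there by its leading probe set only. By the other it was 1.32-fold higher, within the 2.20-fold spread of repeats. Between the spermatogonial types none of 8 differed by 2-fold, against 3.92% higher and 3.94% lower of all tested genes. A second Erlin1 probe set, on U74Av2, read 53.7, 101, 92.4 and 90.8 and did not show this peak. Another, on U74Bv2, read 49.6, 149, 48.2 and 78.6, at least 2.99-fold lower in pachytene than in type B cells and at least 2.99-fold higher in type B than in type A cells, so the direction of Erlin1 is not settled. Nr1h3, a nuclear receptor for oxysterols, read 6.3 and 7.9 in the spermatogonial types and 106 and 160 in the later cell types, which is at least 2.11-fold higher in pachytene than in type B cells.

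Genes of fatty acid synthesis that SREBP factors also drive were taken as a further list. Between round spermatids and type A spermatogonia, 6 of 9 tested genes lay at least 2-fold lower and none higher, against 28.3% and 18% of all tested genes. The median log2 ratio was -1.60 against -0.28 over all tested genes. Scd2, a fatty acid desaturase, read 2086, 1241, 374 and 57.3 and was 36.4-fold lower in round spermatids than in type A spermatogonia by its leading probe set and 9.58-fold lower by another. Fads2, another desaturase, read 4943, 2722, 1045 and 136 and was 36.3-fold lower by its leading probe set, with 6.85-fold and at least 11.7-fold by the others. Acly, which supplies acetyl-CoA, was 5.76-fold lower and Fasn, fatty acid synthase, 3.89-fold lower. From type B spermatogonia to pachytene spermatocytes 4 of 9 genes (Scd2, Fads2, Acly and Fads1) were at least 2-fold lower by leading probe sets. The other probe set of Scd2 was 1.48-fold lower at this step, and those of Fads2 were 1.52-fold and 2.06-fold lower. From pachytene spermatocytes to round spermatids 2 of 8 (Fads2 and Scd2) were lower, with none higher at either step. The shares of all tested genes lower at these steps were 23.2% and 13.7%. Not all of the list read lower: Me1, malic enzyme, read 878, 641, 1220 and 928, and Acss2, which makes acetyl-CoA from acetate, read 334, 387, 538 and 294, both highest in pachytene spermatocytes.

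**Figure D4:**
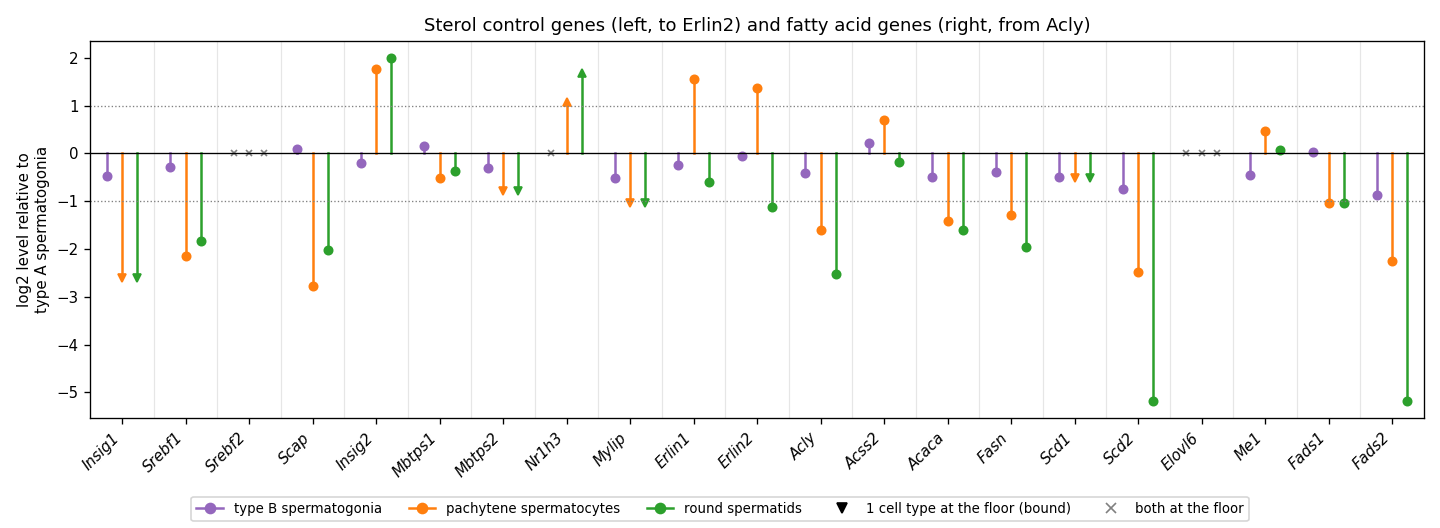
Log2 level relative to type A spermatogonia (vertical) of Insig1, the other control genes and the fatty acid genes (horizontal), with symbols for bounds and values at the floor as given in the key and dotted lines at 2-fold. Insig2 stands at 1.76 in pachytene spermatocytes and Insig1 at -2.61 or below; Scd2 and Fads2 reach -5.19 and -5.18 in round spermatids.

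Of the genes of sterol uptake, transport and storage, 4 of 10 tested were at least 2-fold lower in pachytene than in type B cells. There 1 was higher, against 23.2% lower and 17.1% higher of all tested genes. Abca1, which exports cholesterol, read 466, 366, 59.4 and 22.4 and was 6.15-fold lower, and Npc1, the lysosomal cholesterol transporter, was 2.999-fold lower. Stard4, a sterol carrier, was 2.28-fold lower. Apoe, a lipoprotein that macrophages also make, was at least 16.2-fold lower by its leading probe set and 3.98-fold higher by another, so its direction is not settled. Lrp8, a lipoprotein receptor, was 2.42-fold higher, from spermatogonial signals under the highest negative control of their arrays. Lipe, the hormone-sensitive lipase that also splits cholesterol esters, read 30.7, 26.9, 86.3 and 192 and was 2.23-fold higher in round spermatids than in pachytene spermatocytes. The shares of all tested genes lower and higher in round spermatids than in type A spermatogonia were 28.3% and 18%. In round spermatids 5 of 10 genes (Abca1, Apoe, Stard4, Npc1 and Npc2) read at least 2-fold below type A spermatogonia and 1 (Lipe) above. With Apoe taken by its other probe set, 1.57-fold higher there, 4 of 10 were lower, and at the pachytene step 3 were lower and 2 higher.

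In the branch to other isoprenoids, 3 of 7 tested genes (Coq2, Dhdds and Rabggtb) were at least 2-fold lower in pachytene than in type B cells. There 1 (Fnta) was higher, against 23.2% lower and 17.1% higher of all tested genes. Fnta, a subunit of farnesyl and geranylgeranyl transferases, read 264.5, 246, 981 and 585 and was 3.98-fold higher. Dhdds, which extends farnesyl diphosphate toward dolichol, was at least 4.004-fold lower by its leading probe set and 1.202-fold and 1.30-fold lower by the others. Ggps1, which makes geranylgeranyl diphosphate, read 145, 171.5, 144 and 48.6 by its leading probe set, whereas one on U74Av2 read 87.5, 61.6, 63.9 and 66.8. In round spermatids 5 of 7 genes (Coq2, Dhdds, Ggps1, Rabggta and Rabggtb) read at least 2-fold below type A spermatogonia and 1 (Fnta) above, against 28.3% and 18%. That count depends on the probe sets. Rabggta was 2.17-fold lower by its leading probe set and 2.85-fold lower by another, but 1.62-fold higher by that on U74Av2, so its direction is not settled. The U74Av2 probe set of Ggps1 named above was 1.31-fold lower. The other probe sets of Dhdds were 1.81-fold and at least 2.03-fold lower.

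Likeness of course was measured as the root mean square difference of the log2 levels over the 4 cell types, each centred on its mean. Among pairs of the 8 genes, Insig1 with Nsdhl (0.36), Hmgcs1 with Insig1 (0.38) and Fdps with Cyp51 (0.38) were the nearest and Hmgcs1 with Fdft1 (2.57) the farthest. Sqle and Fdft1 stood 0.87 apart. Over all genes of the same design, the nearest to Hmgcs1 were Timp3 (0.06), Anapc4 (0.06) and Elovl5 (0.09), and the nearest to Fdft1 were Rnf19b (0.09), Dnajc15 (0.18) and Mea1 (0.21), among 3057 genes. The nearest to Sqle were Dpy30 (0.08), Rbbp6 (0.12) and Znrd1 (0.12), and the nearest to Fdps were Ccnf (0.08), Nab2 (0.09) and Pum3 (0.10). The nearest to Insig1 were Kcmf1, Hs6st1 and Jade3, to Nsdhl Prpf31, 1810013L24Rik and Spr, to Cyp51 Gm9519, Magee1 and Palb2, and to Lss Ccdc127, Micall1 and Eif2ak1, all within 0.07. With only 4 values per gene, these distances are a description. Insig1 and Cyp51 were below the floor in both later cell types, so their distances rest in part on the floor value. Those of Lss and Nsdhl hold for their leading probe sets only. The probe sets of Lss disagreed, and the others of Nsdhl gave smaller differences or bounds between type B and pachytene cells.

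**Figure D5:**
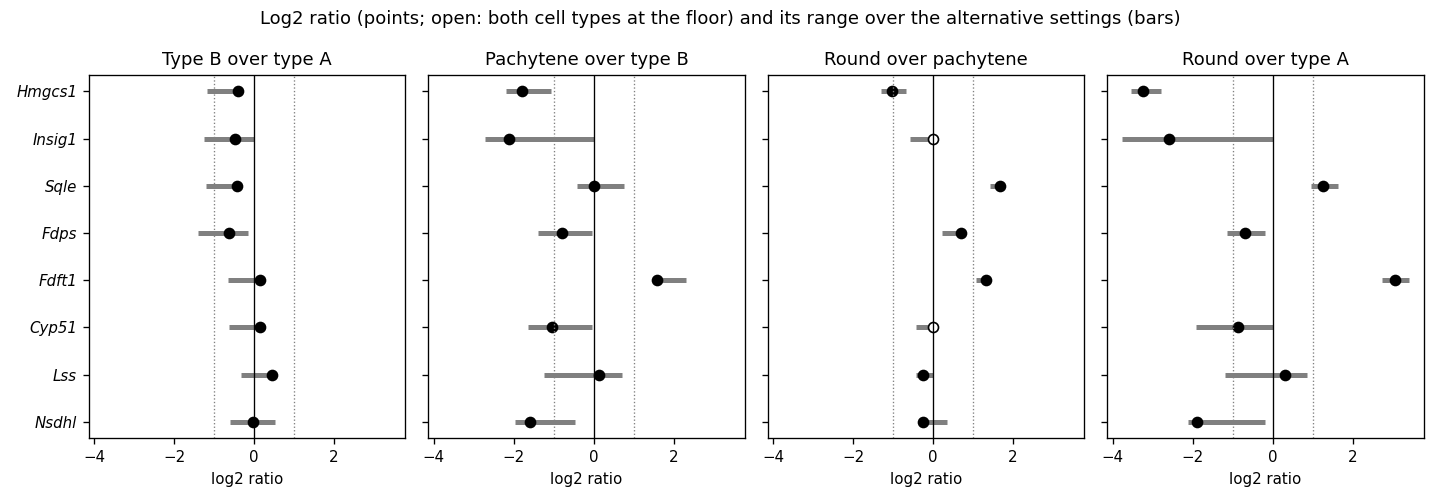
Log2 ratio of the leading probe set of each gene (points) and the lowest to highest value over the alternative settings (bars) for the 4 comparisons, with dotted lines at 2-fold. For pachytene spermatocytes over type B spermatogonia Hmgcs1 ranged from -2.20 to -1.07 and Fdft1 from 1.48 to 2.32, whereas Insig1 reaches 0 on U74Av2 only, where its probe set is below the floor, and Cyp51 (up to -0.033) and Fdps (up to -0.049) end near 0. Open points mark genes below the floor in both cell types.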

How the data were processed

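RNA was labelled by the one-cycle Affymetrix protocol, per the labels. The authors deposited 1 intensity per probe set and array, linear and computed by MAS5 according to the submitters' processing notes, which give no version or settings in the sources used here. The deposited arrays have 2% trimmed means between 125.0 and 125.1. For each design, arrays were brought to the geometric mean of these, values under 0.4 of that mean were set to that floor, and log2 was taken. A ratio against the floor is a lower bound. Of 228 readings of negative controls 22 exceeded the floor and the highest was 103.5. Per array, between 45.9% and 61.2% of probe sets exceeded it.

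Probe sets were named by the platform annotation, updated through Entrez identifiers to RefSeq (GRCm38.p6). For each gene the brightest probe set by mean signal led, and all others of the 8 genes were described. Ratios were taken within a design, and no test was run. The calculations were tested on simulated data. Named were the 8 genes, all listed synthesis enzymes, and from other lists up to 4 genes per comparison with the largest ratios past 2-fold; all further genes and probe sets named were chosen after their values were seen. The members and lists were chosen with earlier results of these data known. Python 3.11.15, numpy 2.4.6, pandas 2.3.3 and matplotlib 3.10.9 were used.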

Additional observations from a re-analysis of the deposited data

How the results depend on the processing

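No paired analysis was possible because there is 1 array per cell type and design, and leaving out replicates was likewise not possible. Alternatives were 3 scalings, 2 other floors or none, a pseudocount of 32, 3 rules for probe sets, a 4-fold threshold and, chosen after seeing the data, type A in place of type B spermatogonia, under which both counts at the pachytene step were as before. Of the single gene ratios under these settings 257 moved by less than 1 SD of the repeats and 71 by more. None of at least 2-fold changed sign, though Insig1 has no ratio on U74Av2 only, where it is below the floor.

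Under spike-in scaling, type B over type A spermatogonia had 4 genes lower by at least 2-fold and a median log2 ratio of -0.92, pachytene spermatocytes over type B spermatogonia had 2 lower and a median of -0.34, and round spermatids over type A spermatogonia had 1 higher and 5 lower. This scaling moved the median of all tested genes too, to -0.67, 0.24 and -0.47 at these comparisons. The median at the pachytene step was -0.50 with a common array median, -1.19 with a floor at 0.2 of the trimmed mean and with no floor, -0.41 with a floor at 0.8, -0.42 with the mean over probe sets and -0.63 without probe sets of special endings. At that step 2 genes were lower with the mean over probe sets and on U74Av2 only. The median of round spermatids over pachytene spermatocytes was -0.25 with a floor at 0.2 and with no floor, where 8 in place of 6 genes entered, and 0.70 on U74Av2 only, where 5 entered. The median of type B over type A spermatogonia was 0.058 on U74Av2 only. Hmgcs1 came under 2-fold, leaving 0 lower genes between round spermatids and pachytene spermatocytes, with quantile normalization, a floor at 0.8 or the pseudocount. At 4-fold the counts were 0 higher and 1 lower for pachytene spermatocytes over type B spermatogonia, 0 and 0 for round spermatids over pachytene spermatocytes, and 1 higher for round spermatids over type A spermatogonia. The cause was not tested except where the number of genes entering is given. Signal over background limits the ratios that are bounds, those of Insig1 and Cyp51 among them.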
